A study of Mus musculus with 6 samples.

Results

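The Egfr locus was described here as a stretch of mouse chromosome 11 (mm9, 16450000 to 16830000, 380 kb) that by its definition holds Egfr and a flank before it. Hotspots, places where DNase I cut liver chromatin more often than around them, were merged over 6 libraries when they overlapped by at least 1 bp, and 24 of the 75169 merged regions of the genome overlapped the stretch. Of these 24 regions, 7 were called in all 6 libraries, out of 37044 such regions in the genome. The samples were livers of C57BL/6 mice fasted for 24 h (3 libraries) and livers of C57BL/6 mice fed ad libitum (3 libraries). All mice were kept in a 12-hr light-dark cycle and killed at 6:00 in the morning, and nuclei of fresh liver were digested with DNase I. The labels number the replicates but do not say that each is a separate mouse. The locus was chosen from these same libraries, because the region at 16488684 was among the sites with the greatest loss of density in fasted livers. The comparison of fasted with fed livers inside the locus is therefore a description, and no p-value is given for it.

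Egfr encodes the epidermal growth factor receptor, a receptor tyrosine kinase of the cell surface. Its ligands, among them EGF, transforming growth factor alpha, amphiregulin and heparin-binding EGF, make the receptor pair with itself or with other ErbB receptors, and the paired receptors signal through the Ras-MAP kinase and PI3 kinase-Akt pathways. Hepatocytes carry the receptor in abundance, and it is known for its part in liver regeneration. In the RefSeq annotation of the later build GRCm38.p6, Egfr lies on the plus strand, after Sec61g (a subunit of the channel that moves proteins into the endoplasmic reticulum) and before Fbxo48 and Plek (pleckstrin, a protein kinase C substrate of platelets and leukocytes). The long noncoding genes Gm39584 and Egfros overlap it there, and Gm39583 is annotated between Sec61g and Egfr. No mm9 annotation was used, so no region below is assigned to a promoter, exon or intron, and the liver identity of the samples was not checked at marker genes.

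The sequence before the Egfr start is shown because it lies just before the Egfr start that RefSeq annotates; no measurement here bears on its activity. It covers the 250 bases before the annotated start (RefSeq, GRCm38.p6, chr11:16751953-16752202, plus strand). Capitals mark TCCTCC.
Egfr promoter: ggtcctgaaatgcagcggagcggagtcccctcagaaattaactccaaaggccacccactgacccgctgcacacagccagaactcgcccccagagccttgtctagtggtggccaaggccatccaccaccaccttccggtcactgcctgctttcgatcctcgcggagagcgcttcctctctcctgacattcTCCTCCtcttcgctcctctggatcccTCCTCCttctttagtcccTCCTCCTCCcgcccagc
TCCTCC was searched on both strands, after the sequence had been read, and matched 4 times (starting at bases 190, 216, 234 and 237 of the 250, the last pair overlapping). At least 1 match was present in 29.2% of 32851 RefSeq promoters of this length, and the share with 4 matches was not computed. The GC box GGGCGG matched 1 time, on the minus strand at base 242, where it shares 1 base with the last TCCTCC, and was present in 32.7% of promoters. The TATA box TATAAA, the CCAAT box CCAAT, the E-box CACGTG, the forkhead core TGTTTAC and the cyclic AMP response element core TGACG had no match, and were present in 12.4%, 33.8%, 6.02%, 3.17% and 17.8% of promoters. The GC content of these 250 bases was 60.8%, against a median of 52.4% over all promoters. These positions belong to GRCm38.p6 and cannot be laid beside the mm9 positions below.

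Each library has its own deposited list of hotspots, 49682 to 63476 of them. The value used for a region is the maximum tag density of its strongest hotspot in a library, in the authors' deposited units. No source used here gives their scale. Within each library every maximum was a whole multiple of a single step (100% within 0.05 step), so that a density can also be read as a height in steps, taken here as tags. Relative depth by that step ran from 1.00 (fed replicate 2) to 1.90 (fasted replicate 2). A library without a call in a region has an unknown density there, not a density of 0. The 5th percentile of all hotspots, which shows how weak a called site could be, was 2.96 to 5.15 in density and 13 to 16 tags in height.

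**Figure D1:**
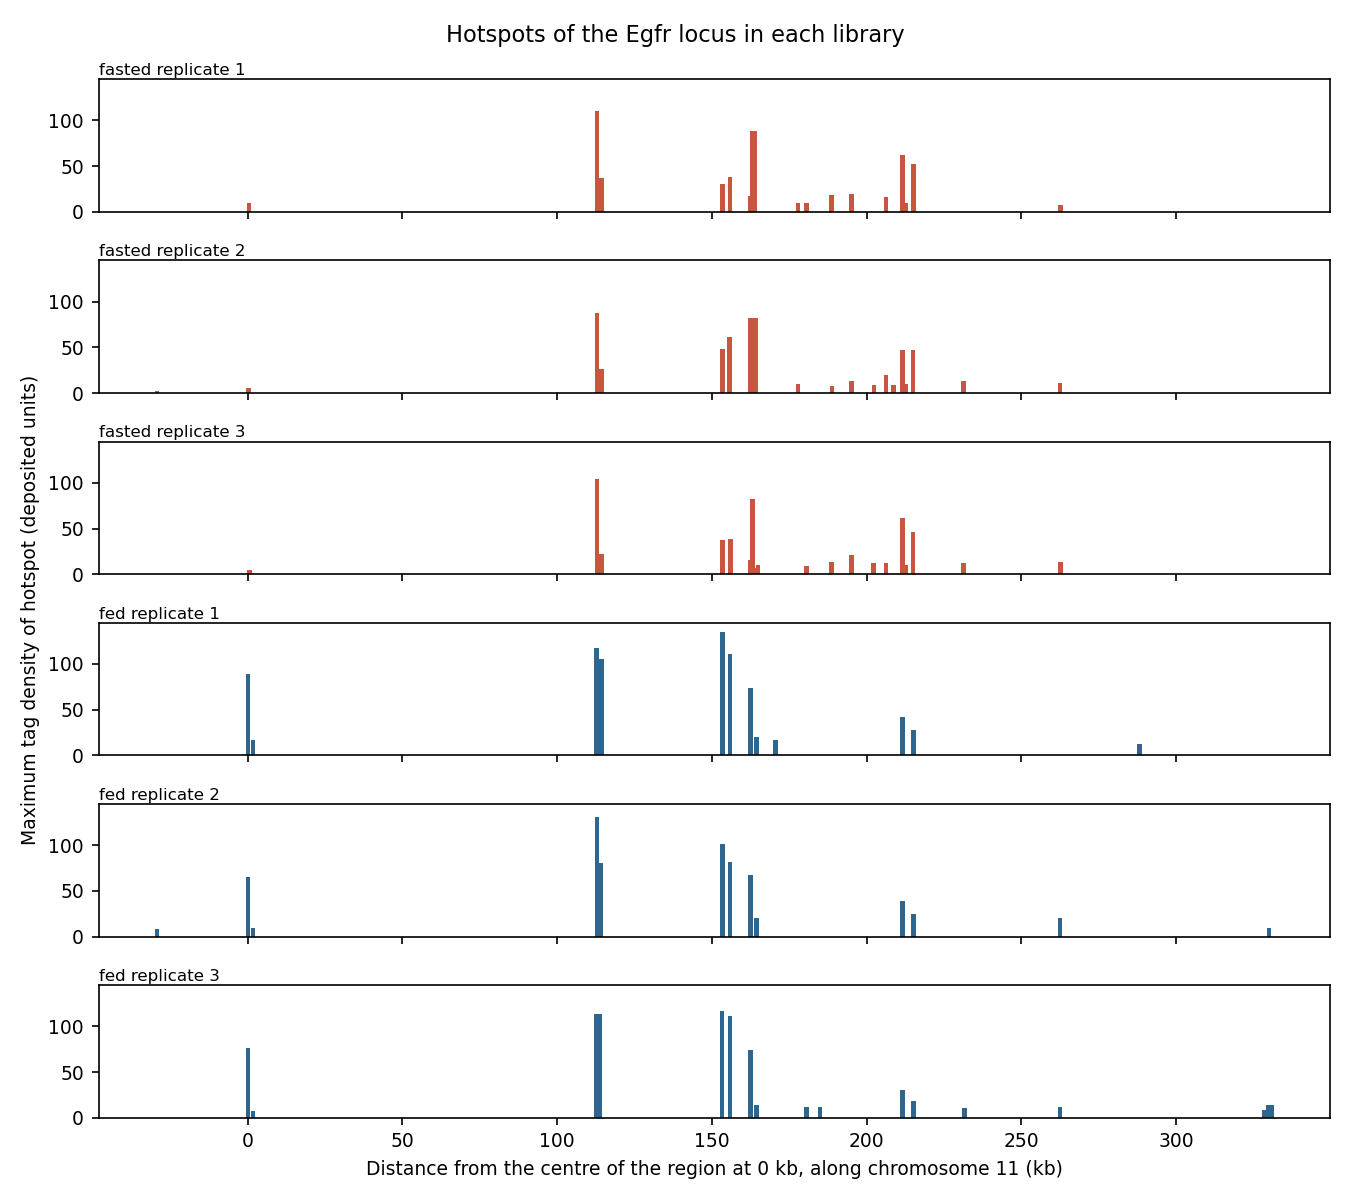
Maximum tag density (deposited units) of every hotspot of the Egfr locus in the 3 fasted libraries above and the 3 fed libraries below, against distance in kb from the centre of the region at 16488684. Bars are hotspots, drawn at least 1.5 kb wide. The bar at 0 kb is under 10 in every fasted library and over 65 in every fed library.

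The locus held 16, 18 and 19 hotspots in fasted replicates 1 to 3, against 12, 13 and 15 in fed replicates 1 to 3. They covered 14010 ± 1937 bp in fasted and 12772 ± 3013 bp in fed libraries (SD, n = 3 each), and the libraries of both groups overlapped in covered length. Every fasted library thus had more hotspots here than every fed one, with no such split in covered length. Nor did merged regions split the groups: 14, 17 and 15 were called in fasted replicates 1 to 3, against 10, 11 and 14 in fed replicates 1 to 3. The hotspot counts thus also depend on how a site is divided into hotspots. How often such a split occurs elsewhere in the genome was not computed. The main sites are described in their order along the chromosome. The region at 16488684 and a pair of sites 153 and 156 kb further on had lower densities in fasted livers. The strong site between them, at 113 kb, and a broad site at 163 kb differed little in their highest density. A second hotspot inside the site at 113 kb was lower in fasted livers, where a library held it apart. Sites from 188 to 215 kb had higher densities in fasted livers or were called there alone. The nearest regions outside the stretch were weak. The one before it, at 16429116, had a density of 2.96 in fasted replicate 2 and no call in the other fasted libraries, against 7.36, 6.37 and 7.09 in fed replicates 1 to 3. The one after it, at 16848837, was called in fasted replicate 2 alone, at 4.74.

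The region that brought the locus to attention spans 16488684 to 16490069 (1386 bp). Its maximum tag density was 9.65, 5.33 and 4.54 in fasted replicates 1 to 3, against 89.0, 65.2 and 76.2 in fed replicates 1 to 3. These densities correspond to heights of 34, 27 and 15 tags in fasted and 242, 174 and 333 tags in fed libraries. The weakest fed library stood far above the strongest fasted one, and fasted replicate 3 was at the height of the weakest hotspots on its list. The mean was 6.50 ± 2.75 in fasted and 76.8 ± 11.9 in fed livers (SD, n = 3 each), an 11.8-fold lower mean in fasted livers. On the log2(density + 1) scale, after subtracting the median of each library over the regions called in all 6, the fold change, fasted minus fed, was -3.35 (SE 0.23). It ranked 3 from the lowest of 37044 shared regions. Its mean density was above that of 6.01% of shared regions in fasted livers and of 88.3% in fed livers.

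The hotspot at this site was also narrower in fasted livers. Its called length was 686, 990 and 308 bp in fasted replicates 1 to 3, against 1269, 1117 and 1386 bp in fed replicates 1 to 3, and the groups did not overlap. The share of all shared regions whose called lengths do not overlap was not computed. Length and average density come from the same hotspot calls as the maximum, so they are not separate evidence. The average density over the hotspot, 2.63 ± 0.90 in fasted and 27.0 ± 3.63 in fed libraries (SD, n = 3 each), differed in the same direction as the maximum. Its neighbour 211 bp on, at 16490281 to 16491115, was called in all 3 fed libraries and in no fasted one. There the density was 16.9, 9.37 and 7.55 in fed replicates 1 to 3, at heights of 46, 25 and 33 tags. Such a pattern, called in all fed and no fasted libraries, was seen at 1.57% of all merged regions. Liver tissue was measured in bulk, so fewer cells with an open site and a less open site in each cell cannot be told apart here or in any region that follows.

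**Figure D2:**
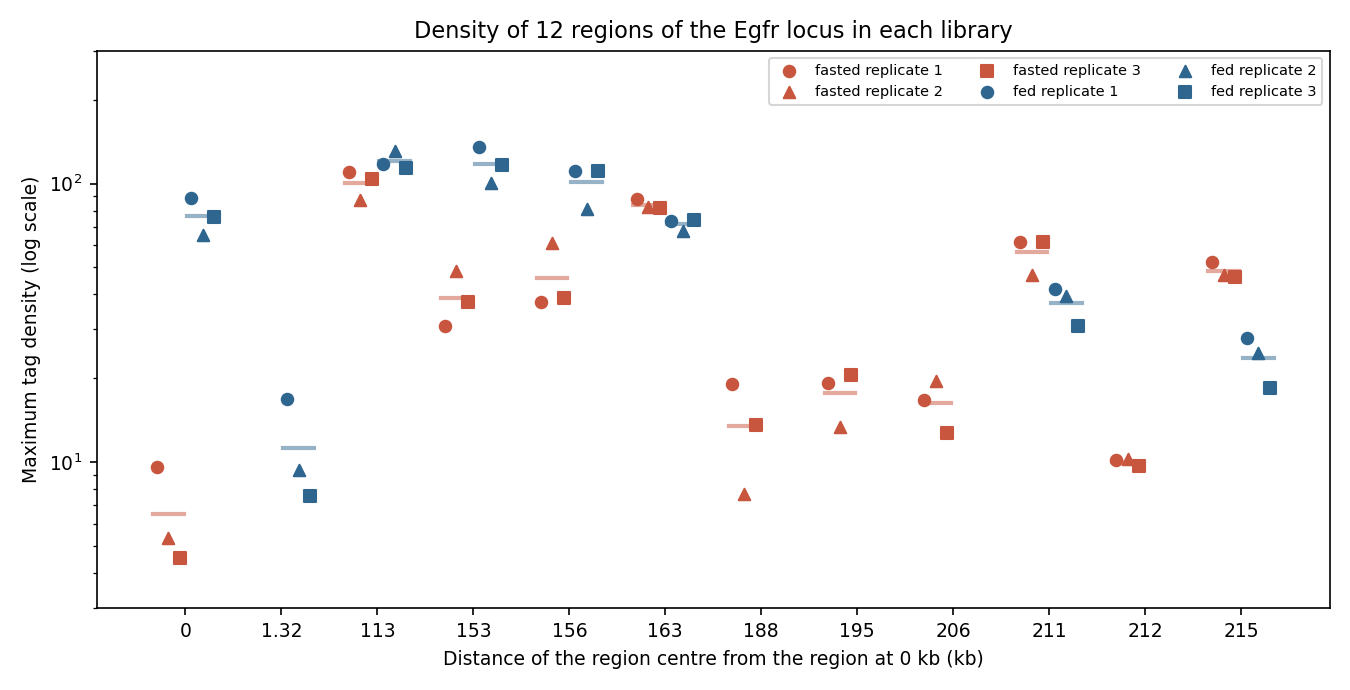
Maximum tag density (log scale) of the 12 regions of the Egfr locus that were called in all 6 libraries or in all libraries of 1 group alone, ordered by distance in kb from the region at 16488684. Points are libraries, fasted to the left of fed, and bars are group means (n = 3). A library without a call has no point. Fasted points lie below fed points at 0, 113, 153 and 156 kb, at 113 kb in deposited densities but not after centring, and above them at 163, 211 and 215 kb.

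A gap of 110 kb without any call separates this pair from the next site, a region of 2654 bp at 16601266 to 16603919. Its density was 110, 87.0 and 104 in fasted replicates 1 to 3, against 118, 131 and 114 in fed replicates 1 to 3. It was a strong site in both groups, with a mean density above that of 92.9% of shared regions in fasted and 96.1% in fed livers. The mean was 100.3 ± 11.9 in fasted and 121 ± 8.91 in fed livers (SD, n = 3 each), with a log2 fold change of -0.20 (SE 0.13). Densities as deposited did not overlap between groups, and after centring they did.

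The single value hides a difference between the parts of this region. In 5 of the 6 libraries it consists of a pair of hotspots. The first reached 110, 87.0 and 104 in fasted replicates 1 to 3, against 118 and 131 in fed replicates 1 and 2. The second, which began between 16602823 and 16603012, reached 37.2, 26.8 and 22.7 in fasted replicates 1 to 3, against 106 and 80.9 in fed replicates 1 and 2. Within a library the second hotspot was 0.339, 0.308 and 0.218 times as high as the first in fasted replicates 1 to 3, and 0.897 and 0.619 times as high in fed replicates 1 and 2. In fed replicate 3 a single hotspot of density 114 covers both, so the second part has no value of its own there. The highest-density rule thus takes the first hotspot, and the lower second hotspot of the fasted livers does not enter the fold change.

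**Figure D3:**
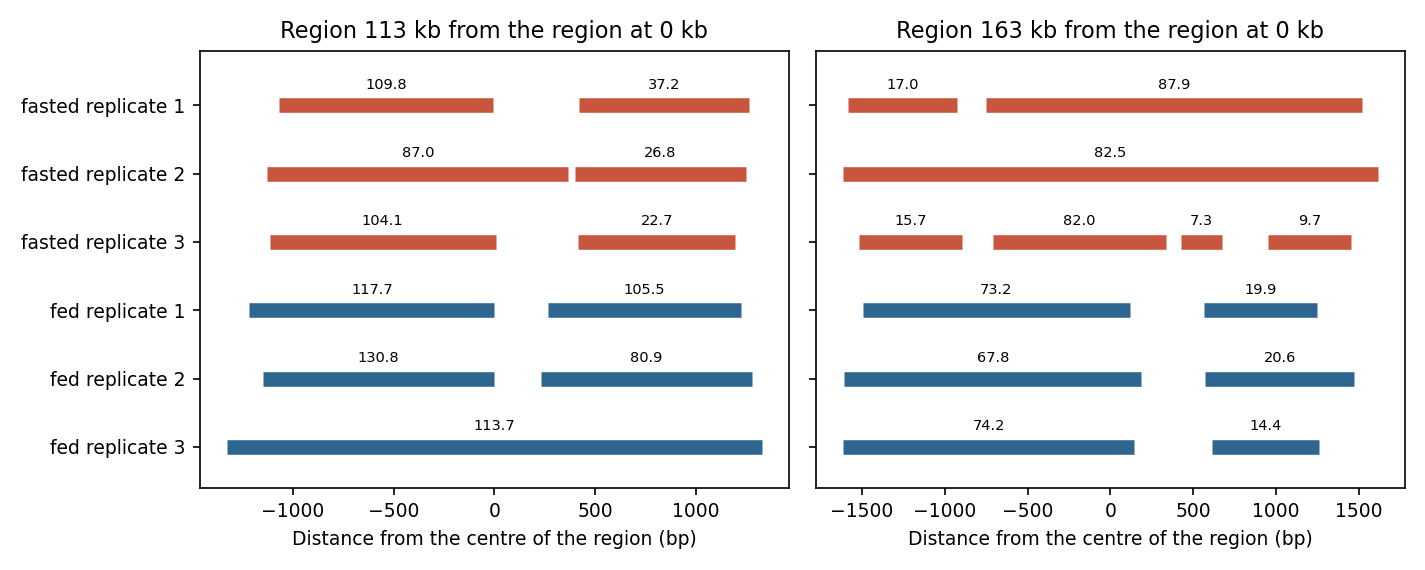
Extent of the hotspots (bars) of each library in the regions at 113 kb (left) and 163 kb (right), against distance in bp from the centre of the region, with the maximum tag density printed above each bar. Fasted libraries are above fed ones. At 113 kb the second hotspot reads 22.7 to 37.2 in fasted libraries, against 80.9 and 106 in the fed libraries that have one.

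Next came a pair of sites 1169 bp apart that were strong in fed livers. The region at 16641875 to 16643235, 153 kb from the first, had a density of 30.9, 48.5 and 37.5 in fasted replicates 1 to 3, against 135, 101 and 117 in fed replicates 1 to 3. No fasted library reached the lowest fed one. The mean was 39.0 ± 8.90 in fasted and 118 ± 17.1 in fed livers (SD, n = 3 each), a 3.01-fold lower mean in fasted livers, and the log2 fold change was -1.51 (SE 0.18). The region at 16644405 to 16645482, at 156 kb, had 37.7, 61.0 and 38.7 in fasted replicates 1 to 3, against 111, 81.3 and 111 in fed replicates 1 to 3. Fasted replicate 2, the deepest library, and fed replicate 2, the shallowest, came closest to each other, but the groups did not overlap. The mean was 45.8 ± 13.1 in fasted and 101 ± 17.1 in fed livers (SD, n = 3 each), with a log2 fold change of -1.07 (SE 0.20). Both sites kept a clear hotspot in fasted livers, at heights of 109 to 309 tags, unlike the first region. With depth as a covariate of the fit their log2 fold changes were -1.66 and -1.31.

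The broad region at 16650915 to 16654146 (3232 bp) was wider than 98.6% of shared regions. Its density was 87.9, 82.5 and 82.0 in fasted replicates 1 to 3, against 73.2, 67.8 and 74.2 in fed replicates 1 to 3. The fasted libraries were all higher, by little: the mean was 84.2 ± 3.29 in fasted and 71.7 ± 3.41 in fed livers (SD, n = 3 each), and the log2 fold change was 0.30 (SE 0.14). The layout of its hotspots varied. In fed replicates 1 to 3 the strongest hotspot began at 16651034, 16650924 and 16650915 and ended by 16652717. In fasted replicates 1 and 3 the strongest hotspot began later, at 16651779 and 16651819, and a weaker hotspot before it reached 17.0 and 15.7. In fasted replicate 2 a single hotspot covered 16650917 to 16654146, so the layout was not uniform within the fasted group.

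**Figure D4:**
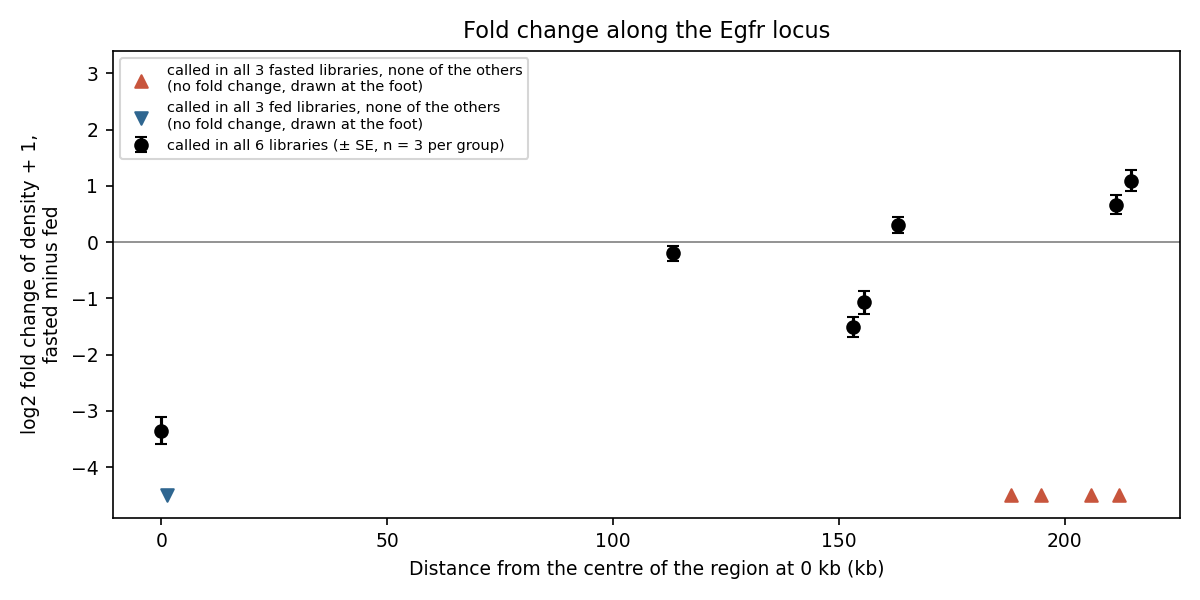
Log2 fold change of density + 1, fasted minus fed, of the 7 regions called in all 6 libraries, with SE (n = 3 per group), against distance in kb from the centre of the region at 16488684. Triangles at the foot mark regions called in all libraries of 1 group alone, which have no fold change. Values run from -3.35 at 0 kb to 1.09 at 215 kb.

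The shared regions beyond the broad region had higher densities in fasted livers. The region at 16700173 to 16701209, at 211 kb, had a density of 61.8, 47.2 and 61.8 in fasted replicates 1 to 3, against 41.9, 39.3 and 30.9 in fed replicates 1 to 3. The mean was 56.9 ± 8.45 in fasted and 37.4 ± 5.77 in fed livers (SD, n = 3 each), with a log2 fold change of 0.67 (SE 0.17). Every fasted library was above every fed one. The region at 16703599 to 16704683, at 215 kb, had 52.2, 47.0 and 46.3 in fasted replicates 1 to 3, against 28.0, 24.7 and 18.5 in fed replicates 1 to 3. Its mean was 48.5 ± 3.23 in fasted and 23.7 ± 4.78 in fed livers (SD, n = 3 each), a 2.04-fold higher mean in fasted livers, and the log2 fold change was 1.09 (SE 0.19). Both hotspots were also longer in fasted livers, at 946 ± 79.1 against 758 ± 74.6 bp in fed livers for the first and 992 ± 50.1 against 780.3 ± 47.6 bp in fed livers for the second (SD, n = 3 each), with no overlap between groups. Here too the share of all shared regions without such overlap was not computed, and length is not separate evidence from density.

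Between the broad region and these 2 sites, and beside them, lay 4 regions called in all 3 fasted libraries and in no fed one, all within 24.6 kb. Over the genome 1.17% of merged regions had such calls. The region at 16677201 to 16677870 had a density of 19.0, 7.70 and 13.6 in fasted replicates 1 to 3. The region at 16683721 to 16684571 had 19.3, 13.4 and 20.6, which is a height of 68 tags in each of the fasted libraries. The region at 16694840 to 16695506 had 16.7, 19.5 and 12.7. The fourth, at 16701226 to 16701801, had 10.2, 10.3 and 9.69 and lies 16 bp after the region at 211 kb. These were modest sites, well under the fasted densities of the shared regions at 211 and 215 kb, but above the 5th percentile of every fed list. That percentile is taken over the whole list, and the weakest fed calls nearby were higher. From the start of the broad region to 16751855, the weakest hotspot had a density of 16.9, 20.2 and 10.3 in fed replicates 1 to 3. Whether sites as weak as these 4 would have been called here in fed livers was not tested.

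The same densities can also be read as ratios inside a library, which need no scaling between libraries. They restate the densities above and are no separate evidence. The density at 153 kb was 0.592, 1.03 and 0.810 times that at 215 kb in fasted replicates 1 to 3, and 4.83, 4.08 and 6.31 times in fed replicates 1 to 3. The density of the first region was 0.0879, 0.0612 and 0.0436 times that at 113 kb in fasted replicates 1 to 3, and 0.756, 0.499 and 0.670 times in fed replicates 1 to 3. Such ratios show unequal change and not which of the sites changed. In fed livers the sites at 113, 153 and 156 kb led the locus in density, and in fasted livers those at 113 and 163 kb did.

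**Figure D5:**
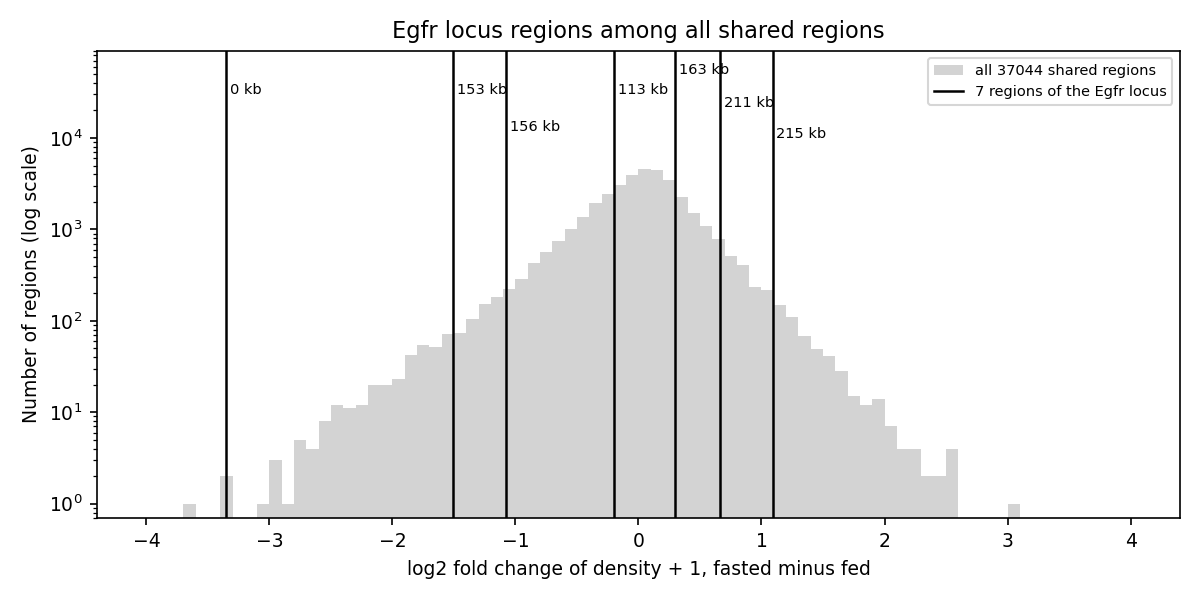
Number of regions (log scale) by log2 fold change of density + 1, fasted minus fed, for the 37044 regions called in all 6 libraries (grey), with black lines at the 7 regions of the Egfr locus labelled by distance from the region at 16488684. The lines run from -3.35 to 1.09, on both sides of the median of all regions, 0.03.

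Across all shared regions a limma fit called 7.89% higher and 7.84% lower in fasted livers (Benjamini-Hochberg adjusted p under 0.05). Of the 7 shared regions of the locus it called 2 higher (211 and 215 kb) and 3 lower (0, 153 and 156 kb), and did not call 2 (113 and 163 kb). The groups did not overlap, after centring, at 6 of the 7 regions and at 31.4% of all shared regions. Since the locus was chosen on this contrast, nothing is read from these counts. The median log2 fold change was -0.20 over the 7 and 0.03 over all shared regions. The region at 211 kb was not called without fasted replicate 1 or without fed replicate 3, which left 1 higher call in each case.

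The remaining 12 regions were weak or called in some libraries of a group, with densities of 2.76 to 20.2. Of these, 3 were called in fasted libraries alone, 5 in fed libraries alone and 4 in both. The most widely called, at 16751169 to 16751855, had 7.94, 10.9 and 13.9 in fasted replicates 1 to 3, against 20.2 and 11.9 in fed replicates 2 and 3 and no call in fed replicate 1. The group ranges overlapped there. Of the 3 called in fasted libraries alone, those at 16690949 and 16697409 lay among the 4 fasted sites. The one at 16666461 lay before them. Between it and the first of them were 16669178, called in both groups, and 16673589, called in fed replicate 3 alone. Those called in fed libraries alone lay at 16659182, 16673589, 16776782, 16817110 and 16818320. All 5, and the 3 called in fasted libraries alone, rested on 1 or 2 libraries.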

How the data were processed

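Per the labels' protocols, fragments of 100 to 500 bp from a digestion with 40 U/ml DNase I were purified on sucrose gradients. CASAVA 1.8 and the build mm9 are named in the submitters' processing notes. No source used here gives the aligner or the hotspot caller. Hotspots were called per library. Per the file headers, the authors deposited a maximum and an average tag density (a signal) for each hotspot. Per the file headers, the authors also deposited the score of each hotspot (as a z value). The authors' deposited p-value and score were not used.

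Hotspots on chromosomes 1 to 19 and X were merged on 1 bp of overlap, and regions overlapping the window were kept. All regions called in 6 libraries were fitted with limma 3.58.1 (R 4.3.3, mean-variance trend) on log2(density + 1), centred on library medians. The fit was tested on simulated data. Tables and plots used Python 3.11.15, pandas 2.3.3 and matplotlib 3.10.9. Heights differed between replicates beyond counting noise (mean squared z between 2.18 and 5.73, with 1.0 for counting noise alone), so none was counted as a duplicate. The p-values behind the calls measure the spread between samples, which may be technical, and counting error rests on heights in tags.

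The members, lists and tests were chosen with earlier results of these data known. Named are all regions called in all 6 libraries or in all of 1 group alone, and the 3 regions elsewhere nearest in their 6 centred densities to the region at 16488684. The other members named at the end of the report were added after their values were seen. Loci of EGF ligands, ErbB receptors and inhibitors, and liver markers, were planned but not analysed, since no mm9 annotation was used.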

Additional observations from a re-analysis of the deposited data

How the results depend on the processing

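The log2 fold changes of the 7 shared regions kept their direction in all 110 values from the alternatives, and 105 moved by less than the spread between replicates. Both counts include the 7 values with the replicate block, which could not move. The region at 16488684 had -3.35 and moved to -2.35 with a pseudocount of 10 and to -2.90 with average density. A larger pseudocount shrinks the change of low values by construction, and the cause of the second shift was not tested. The other 3 values that moved were -0.33 in place of -0.20 at 16601266 and 0.19 in place of 0.30 at 16650915, both with quantile normalization, and 0.85 in place of 1.09 at 16703599 with a pseudocount of 10. At 16601266 average density gave -0.09. The region at 16488684 was not tested in the upper 50% of regions by density, and has no value there. The same holds where hotspots must cover at least 50% of a region. Leaving out each replicate gave the region at 16488684 values of -3.63 to -3.11. Leaving out each replicate gave 1 to 2 higher calls among the shared regions (1 without fasted replicate 1 or without fed replicate 3), in place of 2, and 3 lower calls each time. It gave 22 to 24 regions in all, 7 to 8 called in all libraries, 4 to 5 in fasted alone and 1 to 2 in fed alone (2 without fed replicate 1), in place of 24, 7, 4 and 1. Regions called in all libraries numbered 6 at a single density threshold and 6 where hotspots must cover at least 50% of a region. Those called in fasted alone numbered 3 under that cover rule and 3 with hotspots within 150 bp merged. Deviations from the group means correlated at -0.067, -0.030 and -0.167 between libraries with the same number, which gives no sign of pairing. With the replicate block the counts were again 2 higher and 3 lower. In a balanced design the block cannot change a fold change, so the first region kept -3.35 by construction. Fasted heights at the first region were 15 to 34 tags, so counting error is large there.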

Other observations

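Outside the locus, 3 shared regions came nearest to the region at 16488684 in their 6 centred log2 densities, by Euclidean distance over 37037 regions. They lie on chromosome 6 (mm9, 24157330 to 24158641, distance 0.65), chromosome 13 (46248402 to 46249373, distance 0.75) and chromosome 6 (139919836 to 139921024, distance 0.91). The first had a density of 8.67 ± 3.82 in fasted and 74.6 ± 9.81 in fed livers (SD, n = 3 each). The second had 7.51 ± 1.41 in fasted and 93.0 ± 22.4 in fed livers (SD, n = 3 each). The last had 8.31 ± 1.05 in fasted and 73.9 ± 20.6 in fed livers (SD, n = 3 each). The likeness was searched over the same 6 libraries, so it describes these libraries alone.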
